A study of Mus musculus with 12 samples.

Results

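Suprabasal differentiation and barrier genes were followed in basal cells of the tail epidermis during wound healing (WH). The set was a list of 36 genes of cornification, chosen by what they encode but with earlier results of these data known. Where several probe sets were annotated to 1 gene alone, the one brightest on average across the 12 arrays stood for it. By this rule 34 of the 36 genes were measured, of 17097 genes in all, and Flg2 and Klk5, which the annotation used here does not pair with a probe set, were not analysed here. Adult CD1 mice received a punch wound of 3 mm in the tail skin. The leading edge (LE) was taken with a punch of 4 mm around the wound, the proliferative hub with a punch of 6 mm around the first, and control skin far from the wound of wounded tails, at day 4 (D4) and day 7 (D7). The LE and hub punches enrich for these zones by distance only. Skin was pooled from 5 mice, and for each sample 300 living cells with α6-integrin and without CD34 were then sorted, a gate for the basal layer of the interfollicular epidermis (IFE) and the infundibulum. Amplified cDNA was hybridized to Affymetrix mouse arrays, 2 for each of the 6 groups of region and day. The labels name these arrays biological replicates, but whether they came from separate pools is not stated, so p values measure only the spread between the arrays as given.

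The epidermis is renewed from a basal layer of cells attached to the basement membrane. As a cell leaves this layer it replaces the basal keratins Krt5 and Krt14 with Krt1 and Krt10, and higher up it assembles the cornified envelope, a shell of proteins such as loricrin and involucrin that transglutaminases crosslink under the plasma membrane. Lipoxygenases, ceramide enzymes and lipid transporters coat this shell with the lipids that hold water, filaggrin compacts the keratin filaments and is then broken down, and kallikrein proteases, held back by inhibitors, cut the junctions of the outermost cells so that they shed. These genes are therefore known mainly from the layers above the cells sorted here.

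The values are log2 RMA intensities, and 1 unit is a 2-fold difference. Array medians lay between 5.4 and 5.47 at D4 and between 4.25 and 4.28 at D7, so levels were compared only within a day. Whether the days were normalized together is not stated. Of 8 basal markers all lay above the array median in every group. Krt5 and Krt14 lay between 12.5 and 12.72 on all D4 arrays and between 11.56 and 12.11 on all D7 arrays, near the top of the range. Dst, a linker of hemidesmosomes, was lower in the LE than in control skin on both days (log2 fold changes -1.06 and -0.89, adjusted p = 0.000228 and 0.000711), and Itga6, the antigen of the sort, was higher at D4 (0.42, adjusted p = 0.0328). Cd34, the antigen excluded by the sort, lay below the array median on every array. Of 5 Langerhans and T cell markers, Cd207, Ptprc, Cd3e and Cd3g did so too, while Cd74 stood between 5.47 and 5.84 at D4, at 5.87 on control D7 replicate 1 and between 4.04 and 4.3 on the other D7 arrays. Melanocyte markers were uneven between arrays at D4, with Tyrp1 at 9.63 on hub replicate 2 and 8.48 on control replicate 1 and between 4.42 and 4.83 on the other D4 arrays. Infundibulum markers differed between the control D4 arrays, with Krt79 at 10.38 on replicate 1 and 7.85 on replicate 2. Markers of other cells also differed at the LE. Of 3 endothelial markers, with a mean over the list of 5.83 to 6.12 in the LE at D7 and of 4.54 to 4.79 in the hub, against 4.52 to 5.02 in control skin, Cdh5 was called higher in the LE than in control skin (2.03, adjusted p = 0.0270) and than in the hub (2.56, adjusted p = 0.0342). Of 4 sebaceous markers, Plin2 was higher in the LE at D4 (1.59 over control skin, adjusted p = 0.000774). Scd1 (-0.73), Fasn (0.32) and Mc5r (0.05) were not called there. Of 5 fibroblast markers, Dcn was lower in the LE at D7 (-2.59, adjusted p = 0.0151), and Col1a2, Col3a1 and Pdgfra lay below the array median on every array. Of 5 inner root sheath and hair cortex markers, only Tchh was called in the LE over control skin at D4 (0.71), from below the array median. Krt25 (-0.27), Krt27 (-0.13) and Krt35 (-0.10) had the other sign and Krt71 (0.07) the same. Of 4 bulge markers, only Sox9 was called there, as lower (-0.61). Lgr5 (1.03) and Cd34 (0.57) had the other sign and Lhx2 (-0.11) the same. Of 5 infundibulum markers, only Plet1 was called in the LE, as lower at D7 (-0.86). The part of these cell types in the values below was not tested.

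The LE D4 arrays differed from each other in the barrier genes. Replicate 1 exceeded replicate 2 in 28 of the 34 members, with a median difference of 0.55, and by more than 1 in 10 members (Krt80, Cnfn, Tgm1, Asprv1, Klk6, Klk7, Klk8, Spink5, Alox12b and Grhl3). Over all genes, replicate 1 exceeded replicate 2 by more than 1 in 112 of 17097 (0.655%). Klk6 stood at 8.18 on replicate 1 and 5.15 on replicate 2, Alox12b at 8.83 and 5.79, and Cnfn at 9.15 and 7.01. Krt2 differed the other way, at 3.93 on replicate 1 and 7.83 on replicate 2. In no other group did more than 2 members differ by over 1 between the arrays. Without LE D4 replicate 1, the log2 fold changes of the LE over control skin were 1.61 for Tgm1, 2.06 for Klk10, 1.14 for Spink5, -1.64 for Casp14 and -2.21 for Krt80, each still called, and those calls lost without it are named below.

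**Figure D1:**
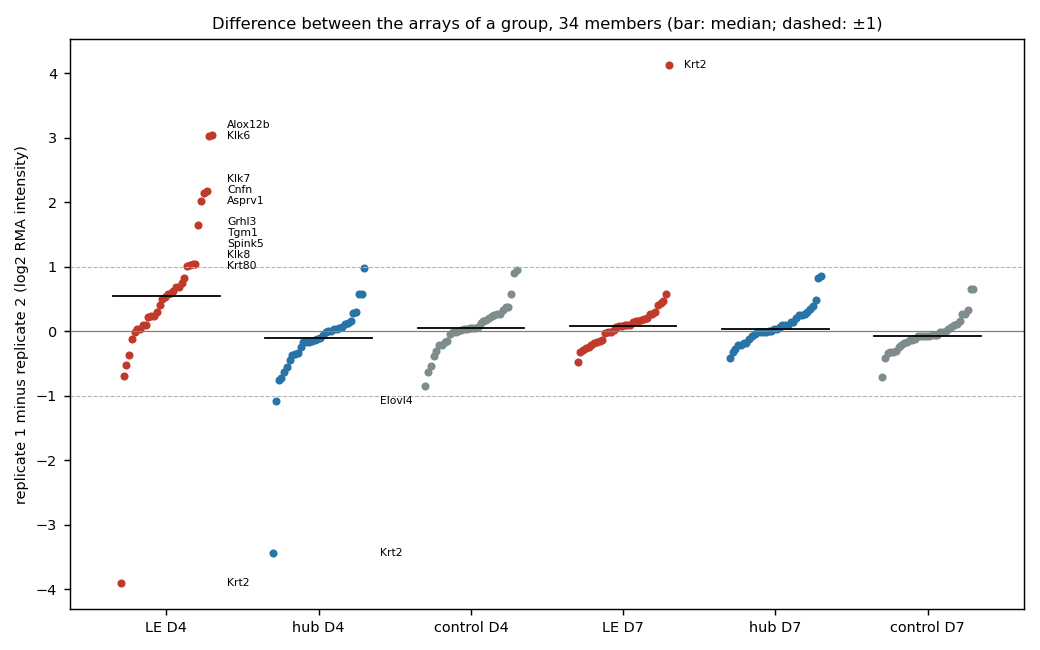
Difference in log2 RMA intensity between replicate 1 and replicate 2 of each group on the vertical axis, 1 point per member (34 per group), with the median as a bar and the members beyond ±1 named. In the LE at D4 the median is 0.55 and 10 members lie above 1, against none to 1 in the other groups.

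At the LE, members were called in both directions. At D4, 5 of the 34 were higher in the LE than in control skin (Cnfn, Tgm1, Klk10, Spink5 and Elovl4) and 5 were lower (Krt1, Krt2, Krt10, Krt80 and Casp14), at an adjusted p under 0.05 in limma. Among all genes 8.3% were called higher and 5.83% lower there. At D7, 5 members were higher (Tgm1, Lypd3, Klk10, Elovl4 and Grhl1) and 1 was lower (Krt80), with 9.25% of all genes called higher and 5.37% lower. Tgm1, Klk10 and Elovl4 were called higher on both days, and Krt80 lower on both. When the arrays of D4 were fitted alone, Tgm1, Klk10, Spink5 and Casp14 kept their calls and the other 6 lost them. The median log2 fold change of the members was 0.06 at D4 and 0.07 at D7, beside 0.03 and 0.02 over all genes. In cells pooled before measurement, a difference in the number of cells that express a gene and a difference in RNA per cell cannot be told apart.

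**Figure D2:**
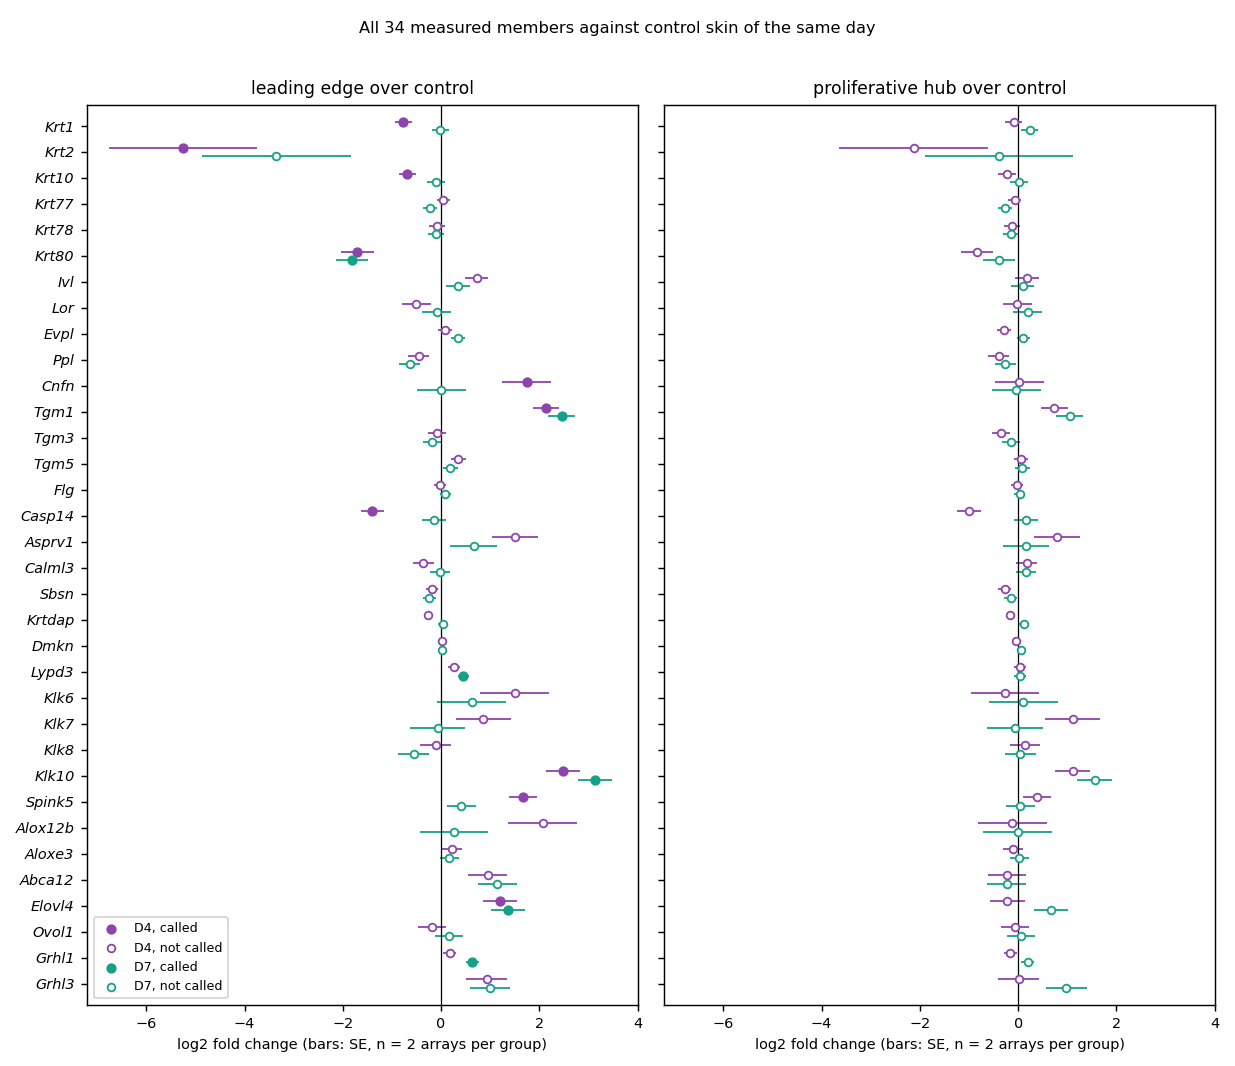
Log2 fold change of each of the 34 members on the horizontal axis, LE over control (left) and proliferative hub over control (right), with SE bars from limma on 2 arrays per group; purple is D4, green is D7, and filled points passed the adjusted p threshold. Tgm1 (2.13 and 2.45) and Klk10 (2.48 and 3.13) lie farthest to the right in the LE, Krt2 farthest to the left, and no point is filled in the hub.

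**Figure D3:**
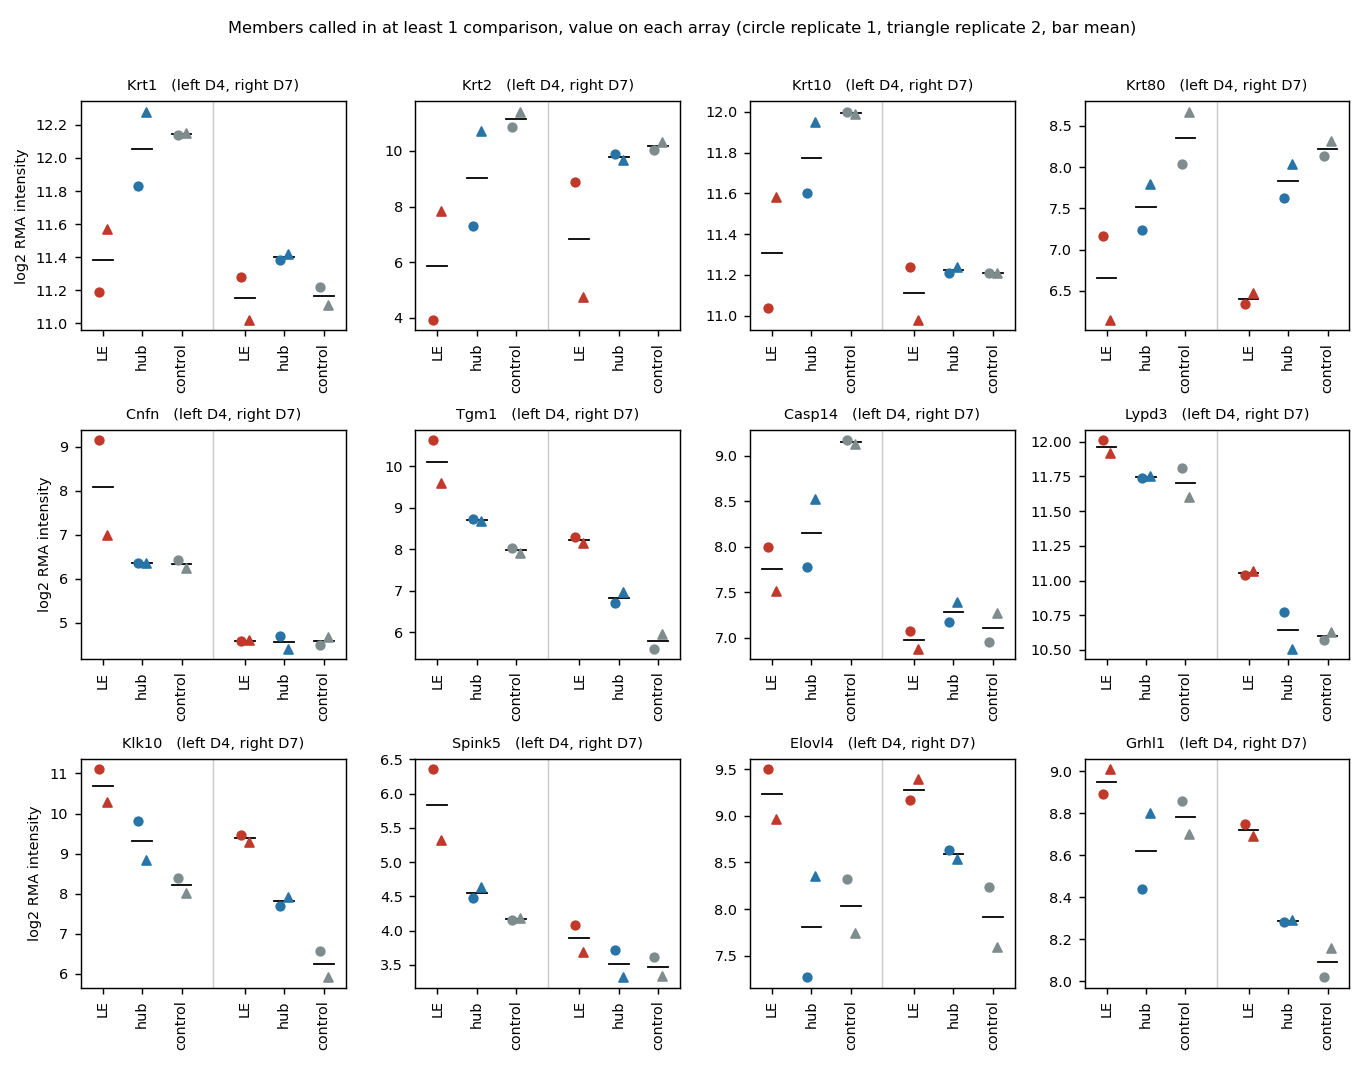
Log2 RMA intensity (vertical axes, a range of its own for each gene) of the 12 members called in at least 1 comparison on every array, with LE, hub and control of D4 at left and of D7 at right of each panel. Both Tgm1 and Klk10 values of the LE lie above the hub and control values of the same day, and the LE values of Krt80 lie below them.

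The promoters of the members were compared with those of all genes, because Tgm1, Klk10 and Elovl4 were called together on both days. RefSeq sequence of the 250 bases before a gene's start (GRCm38.p6) was at hand for 26 of the 34 measured members, in 31 windows. Matches are counted per member below, while the shares of all are per window, over 32851 windows. The 2 are unlike units, as a gene with several windows has more chances of a match. Both strands were searched for an AP-1 motif (TGANTCA), a Grainyhead-like motif (AACCNGTT), a CEBP motif (TTGCNNAA) and a TATA motif (TATAAA). The windows of Tgm1, Klk10 and Elovl4 held none of these letters, and that says nothing of the factors themselves. The AP-1 motif stood in the windows of 6 members (Dmkn, Flg, Ivl, Krtdap, Lor and Sbsn) and in 6.75% of all windows, and the TATA motif in those of 6 members (Flg, Ivl, Krt10, Krtdap, Lor and Tgm3) and in 12.4% of all windows. No member's window held the Grainyhead-like motif, which stood in 1.79% of all, and 7 members' windows held the CEBP motif (Dmkn, Flg, Krt10, Krt77, Lypd3, Sbsn and Tgm3), which stood in 9.56%. None of the 6 members with an AP-1 match was called in any comparison, and of all 34 members 22 were called in none. A link between motif and call was not tested. Shown here are the windows of Klk10 and Elovl4, called higher at the LE on both days, and of Krtdap and Lor, called in no comparison, 5′ to 3′ with the AP-1 motif and then the TATA motif in capitals.
Klk10 (chr7:43780804-43781053, plus strand): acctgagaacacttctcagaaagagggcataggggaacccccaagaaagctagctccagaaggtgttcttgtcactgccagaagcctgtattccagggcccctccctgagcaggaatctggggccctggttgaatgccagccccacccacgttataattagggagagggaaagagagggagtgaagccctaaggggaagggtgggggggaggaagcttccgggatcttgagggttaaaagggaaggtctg
Elovl4 (chr9:83806306-83806555, minus strand): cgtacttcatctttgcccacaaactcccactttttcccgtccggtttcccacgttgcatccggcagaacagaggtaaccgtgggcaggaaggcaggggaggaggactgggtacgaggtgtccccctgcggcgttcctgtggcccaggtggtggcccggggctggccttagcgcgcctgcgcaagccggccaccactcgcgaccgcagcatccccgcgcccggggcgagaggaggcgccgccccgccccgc
Krtdap (chr7:30787655-30787904, plus strand): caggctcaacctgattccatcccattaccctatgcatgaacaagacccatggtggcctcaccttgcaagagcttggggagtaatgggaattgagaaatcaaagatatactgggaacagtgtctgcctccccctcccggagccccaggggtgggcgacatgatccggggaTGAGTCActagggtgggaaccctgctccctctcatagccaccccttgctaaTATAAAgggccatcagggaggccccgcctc
Lor (chr3:92083143-92083392, minus strand): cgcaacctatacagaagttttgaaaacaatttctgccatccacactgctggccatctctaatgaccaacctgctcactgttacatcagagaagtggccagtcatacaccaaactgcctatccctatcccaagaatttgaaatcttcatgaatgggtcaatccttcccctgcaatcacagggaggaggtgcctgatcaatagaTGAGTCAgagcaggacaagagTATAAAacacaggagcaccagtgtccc
In the Krtdap window the AP-1 motif began 81 bases before the start and the TATA motif 30 bases before it, and in the Lor window they began 48 and 27 bases before it.

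Of the 6 suprabasal keratins, 4 were lower in the LE than in control skin at D4. Krt1, the type II keratin that marks the step out of the basal layer, stood at 11.19 and 11.57 in the LE and at 11.83 and 12.28 in the hub, against 12.14 and 12.15 in control skin, so that the LE arrays lay below all others. It was 1.70-fold lower in the LE than in control skin (log2 fold change -0.77, SE 0.17, adjusted p = 0.0147). Its partner Krt10 showed the same order, at 11.04 and 11.58 in the LE and at 11.60 and 11.95 in the hub, against 12 and 11.99 in control skin, and was 1.61-fold lower (log2 fold change -0.69, SE 0.18, adjusted p = 0.0288). Both calls were lost without LE replicate 1 (adjusted p = 0.0998 for Krt1, log2 fold change -0.58, and 0.173 for Krt10, log2 fold change -0.42). They were also lost without control replicate 1 (0.0519 and 0.0950) and without control replicate 2 (0.0623 and 0.0966). At D7 the LE spanned control skin in both genes, with Krt1 at 11.28 and 11.02 in the LE and at 11.38 and 11.42 in the hub, against 11.22 and 11.11 in control skin, and with Krt10 between 10.98 and 11.24 on all 6 arrays. The hub values of Krt1 lay above the others there, without a call. Krt1 and Krt10 lay near the top of the intensity range on every array.

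Krt80, a type II keratin of differentiating epithelia, was the one member called lower at the LE on both days. Its D4 values stood at 7.16 and 6.15 in the LE and at 7.24 and 7.80 in the hub, against 8.04 and 8.67 in control skin. At D7 it stood at 6.34 and 6.47 in the LE and at 7.62 and 8.04 in the hub, against 8.13 and 8.31 in control skin. The LE arrays lay below the hub and the hub below control skin on both days. In the LE it was 3.25-fold lower than in control skin at D4 (adjusted p = 0.00745) and 3.53-fold lower at D7 (adjusted p = 0.00551). The D4 call missed the threshold without control D4 replicate 2 (adjusted p = 0.0505, log2 fold change -1.39), and the D7 call without LE D7 replicate 1 (adjusted p = 0.0505, log2 fold change -1.75).

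Krt2, a keratin of the upper spinous and granular layers that is abundant in mouse tail, had the widest spread of the members. At D4 it stood at 3.93 and 7.83 in the LE and at 7.30 and 10.73 in the hub, against 10.87 and 11.41 in control skin. At D7 it stood at 8.88 and 4.76 in the LE and at 9.89 and 9.69 in the hub, against 10.02 and 10.32 in control skin. The LE lay below control skin on both days, and its arrays differed by about 4 log2 units from each other. The difference from control skin was -5.26 at D4 (SE 1.51, adjusted p = 0.0452) and -3.35 at D7 (SE 1.51, adjusted p = 0.188). Without LE D4 replicate 1 the D4 difference was -3.30 (adjusted p = 0.280), and the call was also lost without either control D4 array (adjusted p = 0.106 and 0.153) and without either hub or control array of D7 (adjusted p between 0.0670 and 0.0708). Of 3 keratins of the tail scale, a parakeratotic part of the tail IFE, Krt36 and Krt84 had low LE values as well, which were uneven at D7. Krt31 lay below the array median on every array and was not called (-0.13 at D4 and 0.08 at D7 for the LE over control skin). Krt36 stood at 5.79 and 5.47 in the LE and at 9.18 and 11.32 in the hub, against 11.65 and 11.54 in control skin at D4, and at 7.82 and 4.43 in the LE and at 10.55 and 9.31 in the hub, against 9.43 and 8.74 in control skin at D7. The LE D7 replicate with the lower Krt2 was thus also the one with the lower Krt36, while at D4 the LE replicate with the lower Krt2 was not. The scale keratin Krt84 was lower in the LE at D4 (log2 fold change -3.92, SE 0.76, adjusted p = 0.00785), and the basal keratin Krt15 was lower in the LE on both days (-2.48 and -1.88, SE 0.39 each, adjusted p = 0.00256 and 0.0108). The part of the scale in the Krt2 values was not tested. Krt77 lay below the array median in every group, and Krt78 lay between 7.05 and 7.35 at D4 and between 6.06 and 6.56 at D7, with no call in either gene.

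**Figure D4:**
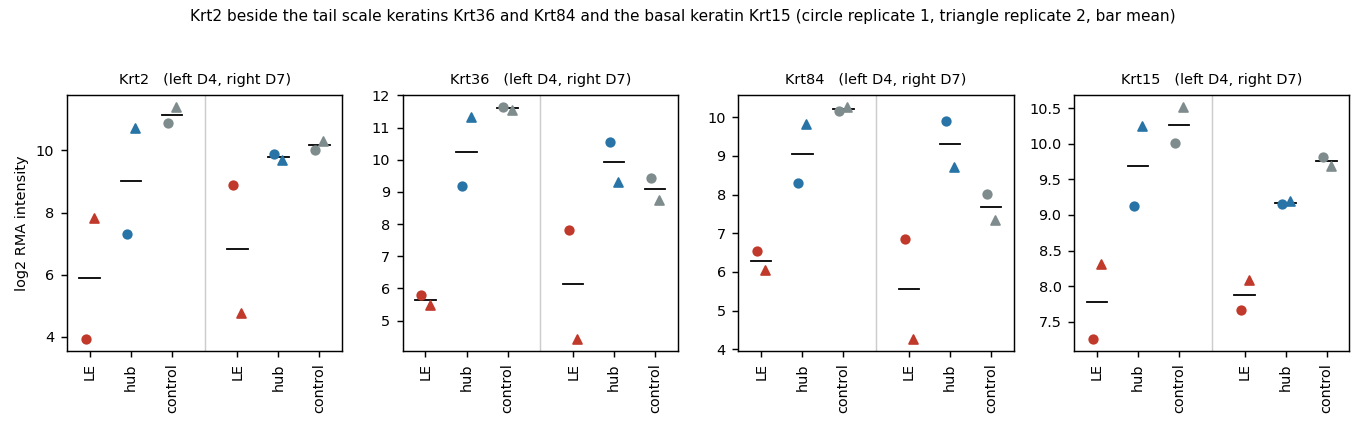
Log2 RMA intensity (vertical axes, a range of its own for each gene) of Krt2, the tail scale keratins Krt36 and Krt84 and the basal keratin Krt15 on every array, with LE, hub and control of D4 at left and of D7 at right. At D4 the LE values of Krt2, 3.93 and 7.83, lie below the control values, 10.87 and 11.41. At D7 the LE values, 8.88 and 4.76, lie below the control values, 10.02 and 10.32.

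Tgm1 encodes the membrane-bound transglutaminase of the keratinocyte, which crosslinks envelope proteins. On the D4 arrays it stood at 10.63 and 9.59 in the LE and at 8.74 and 8.68 in the hub, against 8.03 and 7.92 in control skin. At D7 it stood at 8.31 and 8.16 in the LE and at 6.70 and 6.97 in the hub, against 5.61 and 5.95 in control skin. On both days the LE lay above the hub and the hub above control skin, with no overlap. It was 4.38-fold higher in the LE than in control skin at D4 (log2 fold change 2.13, SE 0.27, adjusted p = 0.000803) and 5.48-fold higher at D7 (2.45, SE 0.27, adjusted p = 0.00048), and these calls held in each of the 12 fits that left out 1 array. The other 2 transglutaminases were called nowhere. Tgm3 lay between 11.18 and 11.87 at D4 and between 10.27 and 10.64 at D7, and Tgm5 lay below the array median in every group.

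Of the 5 cornified envelope and plakin proteins, 1 was called. Cnfn, cornifelin, stood at 9.15 and 7.01 in the LE, at 6.36 and 6.36 in the hub, against 6.43 and 6.25 in control skin at D4. Both LE arrays lay above the other 4, and replicate 1 lay farther from replicate 2 than replicate 2 from control skin. The log2 fold change was 1.74 (SE 0.50, adjusted p = 0.0447). Without LE replicate 1 it was 0.67 and without LE replicate 2 it was 2.81, and both were called (adjusted p = 0.0297 without replicate 1). The call was lost in 10 of the 12 fits that left out 1 array, which were those without a hub or control array of D4 or any array of D7, with adjusted p between 0.0592 and 0.152. At D7 Cnfn lay between 4.42 and 4.71 on all arrays. Ivl, involucrin, stood at 8.66 and 7.98 in the LE and at 8.08 and 7.49 in the hub, against 7.73 and 7.47 in control skin at D4, a log2 fold change of 0.72 over control skin that was not called (SE 0.24, adjusted p = 0.0800). Its second probe set gave 1.43 (SE 0.41), and with the mean of both the adjusted p was 0.0432. It was also called with the replicate number as a block (adjusted p = 0.00683). The log2 fold change of Ivl was 1.06 without LE D4 replicate 2 and 0.38 without LE D4 replicate 1. Lor, loricrin, the main protein of the mature envelope, lay between 4.69 and 5.73 at D4 and below the array median in the LE at D4 and in every group at D7. The plakins Evpl and Ppl, which link the envelope to keratin filaments, lay between 8.75 and 9.78 at D4 and between 7.98 and 8.75 at D7. For Ppl the D4 values were 9.49 and 8.75 in the LE, against 9.69 and 9.45 in control skin. Its log2 fold change in the LE at D4 was -0.45 (adjusted p = 0.220), and -0.82 without LE replicate 1. Ppl had a log2 fold change of -0.64 in the LE at D7 (adjusted p = 0.0749), which passed the threshold when the D7 arrays were fitted alone (adjusted p = 0.0188).

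Casp14, the caspase of cornifying keratinocytes that takes part in the breakdown of filaggrin, was lower in the LE at D4. It stood at 8.0 and 7.51 in the LE and at 7.78 and 8.53 in the hub, against 9.17 and 9.13 in control skin. Both wound regions lay below control skin and overlapped each other. It was 2.63-fold lower in the LE than in control skin (log2 fold change -1.40, SE 0.24, adjusted p = 0.00423), and the call held in all 12 fits that left out 1 array. In the hub the log2 fold change was -1.0 (SE 0.24, adjusted p = 0.141). At D7 the values lay between 6.88 and 7.39, and control skin overlapped both the LE and the hub. Flg, filaggrin, was below the array median in every group, between 3.72 and 3.89 at D4 and between 2.76 and 3.02 at D7. Asprv1, the aspartic protease that cleaves profilaggrin, stood at 8.44 and 6.43 in the LE and at 6.64 and 6.80 in the hub, against 5.86 and 6.01 in control skin at D4. Its log2 fold change in the LE was 1.5 (SE 0.47, adjusted p = 0.0659) and 0.49 without LE replicate 1 (adjusted p = 0.113). At D7 it stood at 4.99 and 5.33 in the LE and at 4.73 and 4.59 in the hub, against 4.44 and 4.56 in control skin (0.66 for the LE, adjusted p = 0.440, and 0.0194 in a fit of the D7 arrays alone).

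The 5 secreted, membrane and calcium-binding proteins of the suprabasal layers had high levels, which were nearly flat in Dmkn, Krtdap and Sbsn. Dmkn, dermokine, lay between 12.13 and 12.24 at D4 and between 11.49 and 11.59 at D7, and its neighbours on the chromosome Krtdap and Sbsn lay between 11.22 and 11.66 at D4 and between 10.42 and 10.84 at D7. The log2 fold changes of these 3 genes in the LE and the hub lay between -0.27 and 0.12, and none was called. A dimmer probe set of Sbsn gave -0.35 and -0.56 in the LE and -0.40 in the hub on both days (SE 0.27). Krtdap in the LE at D4 (-0.26, SE 0.10, adjusted p = 0.119) was called lower after quantile normalization of all arrays (adjusted p = 0.0384) and with the trended prior (0.0223). Lypd3, a membrane-anchored protein of the Ly6 family found in suprabasal cells, was higher in the LE at D7, where it stood at 11.04 and 11.07 in the LE and at 10.77 and 10.51 in the hub, against 10.57 and 10.63 in control skin. The difference was 1.37-fold (log2 fold change 0.45, SE 0.12, adjusted p = 0.0292). The call was lost without any one of the LE or control arrays of D7 (adjusted p between 0.0910 and 0.126). At D4 it stood at 12.01 and 11.92 in the LE and at 11.74 and 11.75 in the hub, against 11.81 and 11.60 in control skin, which was not called (0.26, SE 0.12, adjusted p = 0.203). Calml3, a calmodulin-like protein, lay between 8.87 and 9.83 at D4, with both LE values, 8.87 and 9.57, below both hub values, 9.67 and 9.83, and was called nowhere.

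Klk10 had the largest fold change of any member that was higher at the LE, on both days. It belongs to a run of kallikrein serine proteases that lie side by side on 1 chromosome. At D4 it stood at 11.11 and 10.28 in the LE and at 9.81 and 8.83 in the hub, against 8.40 and 8.03 in control skin. At D7 it stood at 9.47 and 9.29 in the LE and at 7.70 and 7.92 in the hub, against 6.58 and 5.92 in control skin. The order of the regions was LE, hub and control skin on both days with no overlap. In the LE it was 5.57-fold higher than in control skin at D4 (log2 fold change 2.48, SE 0.35, adjusted p = 0.00147) and 8.77-fold higher at D7 (3.13, SE 0.35, adjusted p = 0.000531). Both calls held in all 12 fits that left out 1 array.

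The neighbouring kallikreins did not pass the test. Klk6 stood at 8.18 and 5.15 in the LE and at 4.91 and 4.88 in the hub, against 5.18 and 5.16 in control skin at D4, so that its log2 fold change of 1.5 (SE 0.70, adjusted p = 0.215) came to -0.02 without LE replicate 1 and to 3.01 without LE replicate 2. Its D7 values were 4.28 and 4.19 in the LE, with 3.68 and 3.75 in the hub, against 3.40 and 3.82 in control skin (0.62, adjusted p = 0.656, and 0.0309 in a fit of the D7 arrays alone). Klk7, a protease of corneodesmosomes, stood at 8.91 and 6.73 in the LE and at 8.35 and 7.79 in the hub, against 7.10 and 6.83 in control skin at D4 (0.86 for the LE, SE 0.56, adjusted p = 0.416, and -0.23 without LE replicate 1). Here both hub arrays lay above control skin and the LE arrays lay on either side of the hub. Klk8 lay between 8.78 and 9.91 at D4. At D7 both LE values of Klk8, 8.77 and 8.61, lay below the hub values, 9.33 and 9.27, and the control values, 9.19 and 9.32 (log2 fold change -0.56 over control skin, adjusted p = 0.305, and 0.0177 in a fit of the D7 arrays alone). Spink5, which encodes the inhibitor of the epidermal kallikreins, was higher in the LE at D4, at 6.36 and 5.32 in the LE and at 4.47 and 4.63 in the hub, against 4.16 and 4.18 in control skin. The log2 difference was 1.66 (SE 0.29, adjusted p = 0.00432) and the call held in all 12 fits that left out 1 array. In the hub and in control skin Spink5 lay below the array median, as it did on LE replicate 2 (5.32, with a median of 5.40). In control skin it lay below the lower quartile of the array (4.46 and 4.42). A level above background is not shown there, so no fold is given. At D7 it lay between 3.32 and 4.08, below the array median in every group.

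Of the 4 lipid barrier genes, Elovl4 was called. It encodes the elongase that makes the very long fatty acids of epidermal ceramides. Its D4 values were 9.5 and 8.96 in the LE, with 7.27 and 8.35 in the hub, against 8.32 and 7.74 in control skin. Its D7 values were 9.17 and 9.39 in the LE, with 8.63 and 8.54 in the hub, against 8.24 and 7.59 in control skin. The LE lay above the other regions on both days, while at D4 the hub spanned control skin. It was 2.30-fold higher in the LE than in control skin at D4 (log2 fold change 1.20, SE 0.35, adjusted p = 0.0486) and 2.57-fold higher at D7 (1.36, SE 0.35, adjusted p = 0.0289). The D4 call was lost without either LE D4 array (adjusted p = 0.249 and 0.0636), without control D4 replicate 2 (0.240) and without any one of the 6 arrays of D7 (0.0501 to 0.0745). The D7 call was lost without either LE D7 array (0.101 and 0.137) and without control D7 replicate 2 (0.180). Its second probe set gave 1.16 at D4, which was not called (adjusted p = 0.119), and 2.14 at D7 (SE 0.44 each). The D4 call was also lost after quantile normalization of all arrays (adjusted p = 0.0652), with the mean of its probe sets (0.0502) and with the trended prior (0.0536). Alox12b, the lipoxygenase that starts the oxidation of linoleate in ceramides, stood at 8.83 and 5.79 in the LE and at 5.20 and 5.05 in the hub, against 5.14 and 5.35 in control skin at D4 (2.07, SE 0.70, adjusted p = 0.0844, and 0.55 without LE replicate 1). Its partner Aloxe3 lay between 4.80 and 5.50 at D4 and between 3.12 and 3.55 at D7. Abca12, the lipid transporter of lamellar granules, stood at 8.10 and 7.47 in the LE and at 6.75 and 6.47 in the hub, against 7.31 and 6.36 in control skin at D4, and at 5.86 and 6.35 in the LE and at 5.15 and 4.29 in the hub, against 4.6 and 5.31 in control skin at D7. Its LE values lay above the others on both days, with log2 fold changes over control skin of 0.95 and 1.15 (SE 0.39 each) that were not called (adjusted p = 0.159 and 0.0825).

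Among the 3 transcription factors, Grhl1, a Grainyhead-like factor of desmosome genes, was higher in the LE at D7. It stood there at 8.75 and 8.69 in the LE and at 8.28 and 8.29 in the hub, against 8.02 and 8.16 in control skin, again in the order of LE, hub and control skin. The difference between LE and control skin was 1.55-fold (log2 fold change 0.63, SE 0.13, adjusted p = 0.0113), and was not called without LE D7 replicate 1 (0.60, adjusted p = 0.0775) or control D7 replicate 1 (0.56, adjusted p = 0.0749). At D4 it stood at 8.89 and 9.01 in the LE and at 8.44 and 8.80 in the hub, against 8.86 and 8.70 in control skin. Grhl3, needed for the barrier of the mouse embryo, stood at 9.81 and 8.17 in the LE and at 8.0 and 8.14 in the hub, against 7.95 and 8.17 in control skin at D4, and at 7.25 and 6.68 in the LE and at 6.99 and 6.89 in the hub, against 5.80 and 6.13 in control skin at D7. At D7 both wound regions lay above control skin, by 1.0 for the LE (SE 0.41, adjusted p = 0.151) and by 0.98 for the hub (SE 0.41, adjusted p = 0.364), and neither was called; a fit of the D7 arrays alone called the LE difference (adjusted p = 0.0150). Ovol1, a repressor of proliferation in differentiating keratinocytes, lay between 10.05 and 11.03 at D4 and between 8.64 and 8.88 at D7. Its 2 probe sets differed in sign at D4 (-0.19 and 0.23 for the LE over control skin).

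In the proliferative hub no member was called at either day, against 0.222% of all genes called higher and 0.105% lower at D4, beside 0.591% and 0.17% at D7. At an unadjusted p under 0.05, 2 members lay above and 2 below control skin at D4, and 3 above and none below it at D7. The hub and the LE were set against the same control arrays. For Klk10 the hub level was 2.15 times that of control skin at D4 (log2 fold change 1.11, SE 0.35, adjusted p = 0.247) and 2.95 times at D7 (1.56, SE 0.35, adjusted p = 0.0955). For Tgm1 the ratio was 1.66 at D4 (0.73, SE 0.27, adjusted p = 0.334) and 2.07 at D7 (1.05, SE 0.27, adjusted p = 0.131). In each of these the hub arrays lay above the control arrays. Both genes passed the threshold at D7 when the 6 arrays of that day were fitted alone (adjusted p = 0.0249 for Klk10 and 0.0313 for Tgm1). Tgm1 also passed it at D7 without either LE D4 array (adjusted p = 0.0202).

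Set directly against the hub, the LE had 2 members called higher at D4 (Tgm1 and Spink5) and 2 at D7 (Tgm1 and Klk10), and none lower. Of all genes, 2.61% were called higher and 2.15% lower at D4, beside 1.33% and 1.4% at D7. Tgm1 exceeded the hub 2.64-fold in the LE on both days (log2 fold change 1.40, SE 0.27, adjusted p = 0.0180 at D4 and 0.0302 at D7). The D4 call was lost without either hub D4 array (adjusted p = 0.0660 and 0.107) and the D7 call without any one of the LE or hub arrays of D7 (0.105 to 0.189). Spink5 was higher at D4 (log2 difference 1.28, SE 0.29, adjusted p = 0.0346), a call lost without LE D4 replicate 1 (0.76, adjusted p = 0.130), without either hub D4 array (0.143 and 0.129) and without any one of the hub or control arrays of D7 (0.0510 and 0.0540). Klk10 was 2.97-fold higher at D7 (1.57, SE 0.35, adjusted p = 0.0488), a call lost without any one of the 6 arrays of D7 or the control arrays of D4 (0.0509 to 0.253). Krt80, at 0.373 of the hub level in the LE at D7, missed the threshold (log2 fold change -1.42, SE 0.33, adjusted p = 0.0531), as did Krt1 at D4 (-0.68, SE 0.17, adjusted p = 0.0536). Both lay close to it, and were called lower under several alternatives. For Krt1 these were quantile normalization (adjusted p = 0.0319), the mean of all probe sets (0.0453), the filter on dim genes (0.0391), the trended prior (0.0344) and the replicate block (0.0263). For Krt80 they were the mean of all probe sets (0.0486), the filter (0.0384), the trended prior (0.0285) and the D7 arrays alone (0.00614). Each gene has 1 probe set, so the mean of all probe sets and the filter left its log2 fold change unchanged. Krt1 was not called in a fit of the D4 arrays alone. Its log2 fold change against the hub at D4 was -0.49 without LE D4 replicate 1 and -0.86 without LE D4 replicate 2.

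The differences at D4 and D7 were compared directly through the interaction of region and day. No member was called for the LE against control skin, the hub against control skin or the LE against the hub, also after quantile normalization of all arrays together. Over all genes 1 was called higher (0.00585%) and 4 lower (0.0234%) for the LE against control skin, none in the hub, and 3 lower (0.0175%) for the LE against the hub. At an unadjusted p under 0.05, 4 members had a higher and 2 a lower difference between LE and control skin at D7 than at D4. Casp14 had the lowest p (1.26, SE 0.34, adjusted p = 0.350), followed by Krt1 (0.75, SE 0.24, adjusted p = 0.451) and Spink5 (-1.25, SE 0.41, adjusted p = 0.454). Without LE D4 replicate 2, whose barrier values were the lower ones, 4 members were called for the LE against control skin (Cnfn, Asprv1, Klk6 and Alox12b, all with a smaller difference at D7). A member called at D4 and not at D7, such as Krt1, Casp14 or Spink5, was therefore not shown to differ between the days. For Tgm1 the difference between the days was 0.32 (SE 0.38) and for Klk10 0.65 (SE 0.50).

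Other genes of cornification, in 5 lists with 111 measured genes, were also called in both directions at the LE. Against control skin 25 were higher and 9 lower at D4, beside 8.3% and 5.83% of all genes. At D7 23 were higher and 9 lower, beside 9.25% and 5.37% of all genes. The counts of each list are to be read against the same shares. In the hub 1 was higher and none lower at D4, beside 0.222% and 0.105% of all genes. At D7 7 were higher and 1 lower there, beside 0.591% and 0.17% of all genes. Of the 28 lipid barrier genes, 10 were higher and 1 lower in the LE at D4, while at D7 7 were higher and 1 lower. Sult2b1, the sulfotransferase of cholesterol (log2 fold changes 2.54 at D4 and 2.51 at D7), Nipal4, a membrane protein of the ceramide pathway (2.08 and 2.28), and Cyp4f39, the hydroxylase of very long fatty acids (1.5 and 2.82), were called on both days. Cyp4f39 stood at 9.33 and 8.22 in the LE at D4, with replicate 1 over replicate 2 by more than 1 as in the members named above. Degs2, which makes phytoceramides, was called at D4 (1.95, SE 0.47), where it stood at 8.36 and 6.39 in the LE, against 5.59 and 5.25 in control skin. Of the 27 envelope and keratohyalin genes, 5 were higher and none lower at D4, while at D7 4 were higher and 1 lower. They included Csta1, a cysteine protease inhibitor (2.88 and 2.41), and Pla2g4e, a phospholipase (1.67 and 2.32, with 9.03 and 7.29 on the LE D4 arrays), on both days, Hal, the histidase that makes urocanate (1.37), at D4, and Scel, sciellin, which was lower at D7 (-1.02).

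The proteases and inhibitors, the corneodesmosome genes and the regulators differed by gene. Of 19 proteases and inhibitors, 5 were higher and 1 lower in the LE on each day. Of all genes 8.3% were higher and 5.83% lower at D4, and 9.25% and 5.37% at D7. These shares also stand beside the lists that follow. Ctsc, cathepsin C, was higher on both days, with log2 fold changes of 1.95 and 2.41 in the LE, beside 1.42 and 1.38 for the hub. Serpinb2, a serpin that inhibits plasminogen activators, was lower at D7 in the LE (-2.33) and in the hub (-2.09), Tmprss4, a membrane protease, was higher at D7 in both (0.87 and 1.02), and the kallikrein Klk11 was lower in the LE at D4 (-1.01). Of 8 corneodesmosome genes, 2 were higher and 1 lower at D4, while at D7 1 was higher. Cdsn, corneodesmosin, stood at 10.43 and 7.38 in the LE and at 5.61 and 5.69 in the hub, against 5.52 and 5.81 in control skin at D4 (3.24, SE 0.71, adjusted p = 0.0141). The paralogues Dsg1b and Dsg1a, forms of desmoglein 1, were called in opposite directions at D4 (0.95 and -1.54). Of 29 regulators, 3 were higher and 6 lower at D4, while at D7 6 were called each way. Pou2f3 (-2.34 and -1.29), Hopx (-1.56 and -1.45) and Rora (-1.30 and -1.35), transcriptional regulators of keratinocyte differentiation, were lower on both days, and Ppard, a lipid-activated nuclear receptor, was higher on both (1.71 and 1.57).

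**Figure D5:**
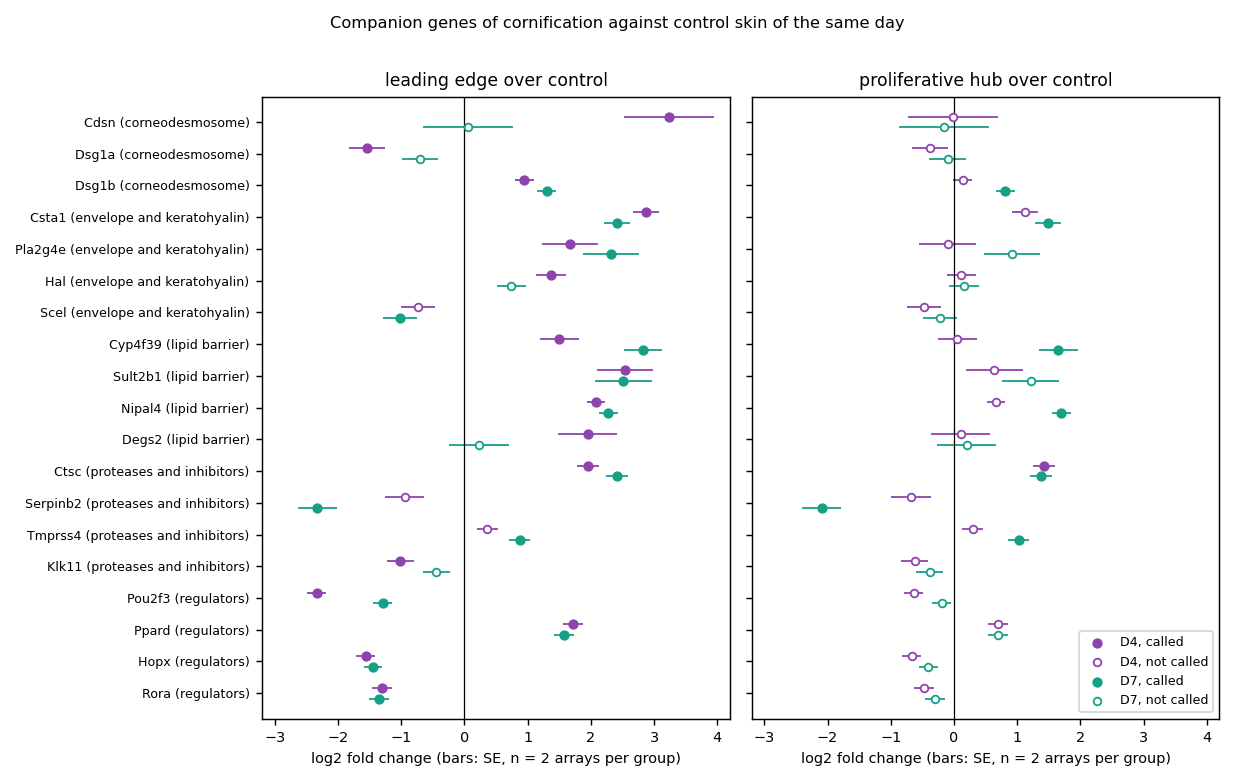
Log2 fold change of 19 companion genes on the horizontal axis, up to 4 called genes with the largest change from each list, for LE over control (left) and proliferative hub over control (right), with SE bars from limma on 2 arrays per group; purple is D4, green is D7, and filled points passed the adjusted p threshold. Csta1, Sult2b1, Nipal4 and Ctsc lie to the right of 1.9 in the LE on both days and Pou2f3, Hopx and Rora to the left of -1.2.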

How the data were processed

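Tail basal cells of 3 regions at 2 days were profiled on 12 arrays. The authors deposited log2 RMA values for 45141 probe sets, that is, intensities corrected for background, quantile normalized and summarised over the probes of a set. The arrays of D4 and D7 do not share 1 distribution, and whether they were normalized together is not stated. The sources used here give no version of the software. Every column was used. Of the probe sets, the platform annotation pairs 28898 with 1 gene, 551 with several and 15588 with none, beside 104 controls. Only those paired with 1 gene were used, 28689 of them matched to RefSeq by gene identifier.

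One limma model of the 6 groups (limma 3.58.1, R 4.3.3) was fitted to 17097 genes on 6 residual degrees of freedom, and Benjamini-Hochberg adjustment ran over all genes within a comparison. No filter on dim genes was applied. The fit was tested on simulated data. The number of arrays limits the precision. Replicate numbers are shared between groups, and the check of pairing is given below with the alternatives, which were other scalings, all probe sets of a gene, a filter, a trended prior, single days, a replicate block, the 2-fold rule of the methods and leaving out each array. Members and lists were chosen with earlier results of these data known. Every measured member is named, with values of each array for those called and, chosen after values were seen, for some others. From each companion list up to 4 called genes with the largest change are named. Promoters are from RefSeq tables of GRCm38.p6. The positions printed are those of the RefSeq windows; the array annotation gives no build, and no other positions are given.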

Additional observations from a re-analysis of the deposited data

How the results depend on the processing

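With 2 arrays per group, counts of called members moved with the arrays used. Leaving out each array in turn gave 4 to 16 for the LE against control at D4 (10 with all arrays; 6 without control D4 replicate 1, 4 without control D4 replicate 2 and 16 without LE D4 replicate 2), 2 to 10 at D7 (6; 2 without LE D7 replicate 1 and 10 without either LE D4 array), 0 to 0 and 0 to 1 for the hub against control, 1 to 11 and 0 to 3 for the LE against the hub (11 without LE D4 replicate 2), and 0 to 4, 0 to 0 and 0 to 3 for the changes of these differences between the days (4 and 3 without LE D4 replicate 2). A fit of the 6 arrays of the day called 4 members for the LE against control at D4 and 11 at D7, 2 for the hub at D7, and 0 at D4 and 4 at D7 for the LE against the hub. The 2-fold rule gave 6 for the LE at D4, 2 for the hub at D7 and 4 for the LE against the hub at D7. For the LE against the hub, the mean of all probe sets and the filter on dim genes each called 4 at D4, quantile normalization of all arrays called 1 at D7, and the trended and robust prior called 4 at D7.

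Nothing in the labels says that a replicate number marks shared mice or a batch, and 2 numbers are too few to settle it from the values. Over all genes, differences between replicates 1 and 2 correlated between groups with r of 0.17 to 0.245 at D4 and 0.00234 to 0.0666 at D7. Over the members, r at D4 was 0.649 between LE and hub, 0.458 between hub and control and 0.127 between LE and control. At D7 the r over the members lay between -0.177 and 0.0459. A shared structure at D4 is therefore possible. With a replicate block within the day, 1 member was called for the hub at D7 (Klk10) and 5 for the LE against the hub at D4, and the other counts stayed within 1.5 times. Elovl4 missed the threshold under the block on both days (adjusted p = 0.0794 at D4 and 0.0507 at D7). No call changed sign under any alternative.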
